A study of Trametes cinnabarina with 17 samples.

Results

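The report concerns 2 genes of *Pycnoporus cinnabarinus* CIRM-BRFM 137 (Pycci 137), Pycci1.5741 and Pycci1.5611, out of 10442 gene models in the count table. The numbers are JGI protein IDs, and they are written here with the genome name from the row names and a dot in front. Both were predicted as cytochrome P450 genes and were named by the study for growth on pine, and here they were taken by those IDs and compared over 6 carbon sources. The transcriptome was measured by RNA-seq in 17 libraries of mycelium from 3-day liquid cultures, with 3 libraries each for maltose, pine, aspen, wheat straw and xylan-galactomannan, and 2 for Avicel, numbered 1 and 3. The labels give 20 g/l maltose for the maltose cultures, whereas the other 5 media contained 2.5 g/l maltose together with 15 g/l of the substrate. The substrates were pine wood fragments under 2 mm, aspen milled to 1 mm, wheat straw, the microcrystalline cellulose Avicel, and a mixture of xylans and galactomannans. All cultures were of 1 strain and were shaken at 30°C. The substrate and the lower maltose concentration cannot be told apart in any comparison against maltose. The study's text describes each substrate as the sole carbon source, and this difference was not resolved. The study describes independent cultures for every substrate except xylan-galactomannan, which its text does not cover. If those 3 libraries share a culture, their spread is technical.

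Cytochrome P450s are heme-containing monooxygenases that insert an oxygen atom into an organic substrate, with electrons that usually come from NADPH through a reductase. White-rot fungi carry large families of these genes, and some of the enzymes are known to oxidise lignin-derived aromatics, wood extractives such as resin compounds, and other foreign molecules inside the cell, while others take part in sterol and fatty acid metabolism. The substrates of Pycci1.5741 and Pycci1.5611 are not known from the sources used here. The study's annotation places them in different groups of orthologous proteins. Gene Pycci1.5741 belongs to KOG0156, the group of the animal CYP2 type, and Pycci1.5611 belongs to KOG0157, the group of the CYP4, CYP19 and CYP26 types. Both carry the enzyme class of the unspecific monooxygenases. Cytochrome P450s form a multigene family, and how reads with several mapping positions were handled is not stated in any source used here, so the counts of near-identical copies are uncertain.

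Libraries held 10668073 to 16176027 counts in total, with 11296893 to 12530780 on pine. The 2 genes had between 207 and 6177 counts in a library. No pair of replicates agreed within sampling noise (lowest chi-square per degree of freedom 8.50), so each library was counted once. Levels are given as normalized counts, which are counts that the authors divided by a size factor per library. They compare libraries for 1 gene, and they do not compare 1 gene with another, because gene length is not taken into account.

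Gene Pycci1.5741 was transcribed on every carbon source and was highest on pine. The 3 pine libraries had 6672, 4846 and 6366 normalized counts, and the wheat straw libraries had 4463, 4233 and 3865. The aspen libraries had 3579, 2753 and 1658. All pine libraries therefore lay above all wheat straw libraries, which in turn lay above all aspen libraries. The libraries of xylan-galactomannan had 2350.1, 2907 and 2322, those of Avicel had 1933 and 2573, and those of maltose had 1435, 1106 and 1437. Aspen, xylan-galactomannan and Avicel overlapped with each other, and maltose lay below every other library. The group means were 5962 ± 978 on pine, 4187 ± 302 on wheat straw, 2663 ± 964 on aspen, 2526 ± 330 on xylan-galactomannan, 2253 ± 452 on Avicel and 1326 ± 190 on maltose (SD, n = 3, and n = 2 for Avicel).

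Gene Pycci1.5611 was also highest on pine, but aspen came next, and its range was wider. The pine libraries had 4199.6, 8539 and 3895 normalized counts, and the aspen libraries had 2619, 1512 and 2349. The xylan-galactomannan libraries had 839, 670 and 836, and the wheat straw libraries had 946, 632 and 565. These 2 groups overlapped. The Avicel libraries had 414 and 333, and the maltose libraries had 219, 210.3 and 180. The mean on pine was 5544 ± 2598, against 203 ± 20.6 on maltose (SD, n = 3 each). The order was pine, aspen, xylan-galactomannan with wheat straw, Avicel and maltose, and no other neighbouring groups in this order overlapped. The share of all genes with such an order was not computed for this gene or for Pycci1.5741.

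**Figure D1:**
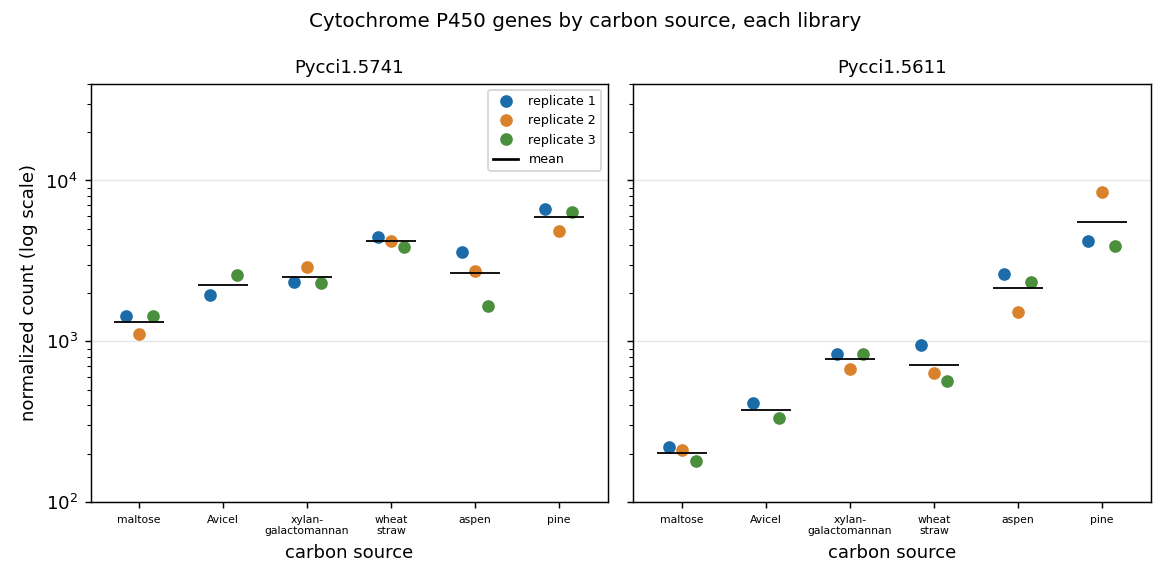
Normalized count (log scale) of Pycci1.5741 and Pycci1.5611 in each of the 17 libraries, by carbon source, with points coloured by replicate number and a black line at the group mean. Pine is highest in both panels, from 4846 to 6672 for Pycci1.5741 and from 3895 to 8539 for Pycci1.5611. The second highest group is wheat straw for Pycci1.5741 and aspen for Pycci1.5611.

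The pattern of each gene was used by the study to choose it on maltose, Avicel, aspen, pine and wheat straw, so differences among these 5 groups are given as a description without a test. For both genes all 3 pine libraries lay above all 14 others, which was the case for 8.71% of the 9162 genes tested. The margin was small for Pycci1.5741, where the lowest pine library had 4846 and the highest of the other libraries, on wheat straw, had 4463. For Pycci1.5611 these values were 3895 on pine and 2619 on aspen. When a second substrate was set beside pine, a comparison chosen after the values were seen, the 2 genes separated. For Pycci1.5741 the 6 libraries of pine and wheat straw all lay above the 11 others (lowest 3865, highest of the others 3579), as for 1.8% of genes tested. For Pycci1.5611 the 6 libraries of pine and aspen all lay above the 11 others (lowest 1512, highest of the others 946), as for 2.61% of genes tested. The 2 patterns exclude each other, so no gene could have both.

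The study set a level of 12 on the scale of log2 normalized counts for highly transcribed groups of genes. On this scale the mean of Pycci1.5741 was 12.53 on pine and 12.03 on wheat straw, just inside the level, and 11.31 on aspen. The mean of Pycci1.5611 was 12.34 on pine and 11.04 on aspen. In single libraries Pycci1.5741 was above this level in 5 and Pycci1.5611 in 2.

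Fold changes were estimated in 1 fit over all genes with the quasi-likelihood model of edgeR. Against maltose, the log2 fold change of Pycci1.5741 was 2.13 ± 0.22 on pine, 1.63 ± 0.22 on wheat straw, 0.98 ± 0.21 on aspen and 0.73 ± 0.23 on Avicel (SE). That of Pycci1.5611 was 4.73 ± 0.31 on pine, 3.39 ± 0.29 on aspen, 1.78 ± 0.28 on wheat straw and 0.85 ± 0.31 on Avicel (SE). On pine only 36 genes (0.393% of those tested) had a larger log2 fold change against maltose than Pycci1.5611, whereas 345 genes (3.77%) had a larger one than Pycci1.5741. The 2 genes were therefore close to each other on Avicel and on wheat straw, and far apart on both woods. With upper-quartile scaling the log2 fold changes of all genes on pine against maltose moved by a median of -0.12. On aspen against maltose the 0.98 of Pycci1.5741 lay just under the threshold of 1 used for calls. It was 1.01 with RLE factors, without the filter on low counts and with DESeq2. With upper-quartile factors, the replicate block and only the groups compared it was 0.92, 0.97 and 0.98.

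**Figure D2:**
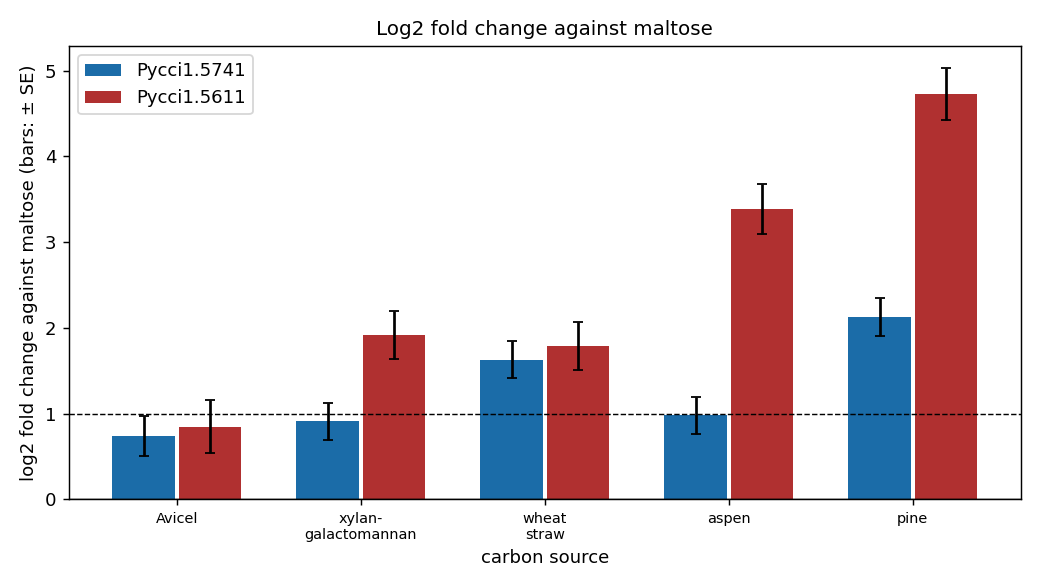
Log2 fold change against maltose (y axis, no unit) of Pycci1.5741 and Pycci1.5611 on the other 5 carbon sources, with error bars of 1 SE from the edgeR fit and a dashed line at the threshold of 1. The bars of the 2 genes are of like height on Avicel (0.73 and 0.85) and wheat straw (1.63 and 1.78), and on aspen they reach 0.98 and 3.39.

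Between the woods both genes were higher on pine. The kind of wood and the particle size (under 2 mm for pine, 1 mm for aspen) cannot be told apart in this comparison. On pine against aspen the log2 fold change was 1.15 ± 0.21 for Pycci1.5741 and 1.34 ± 0.26 for Pycci1.5611 (SE). Each rested in part on 1 library. Without aspen replicate 3, the lowest aspen library of Pycci1.5741, its log2 fold change was 0.90, and without pine replicate 2, the highest library of Pycci1.5611, that of Pycci1.5611 was 0.89. On pine against wheat straw the genes differed more, with 0.50 ± 0.21 for Pycci1.5741 and 2.94 ± 0.28 for Pycci1.5611 (SE). Only 14 genes of those tested had a larger log2 fold change than Pycci1.5611 in this comparison, and 1647 had a larger one than Pycci1.5741. On wheat straw against aspen the signs differed, with 0.65 ± 0.21 for Pycci1.5741 and -1.60 ± 0.27 for Pycci1.5611 (SE).

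The count of Pycci1.5611 was divided by the count of Pycci1.5741 within each library, which removes the library size. The ratio itself depends on the lengths of the genes, and only its changes between carbon sources were read. It was 0.156 ± 0.0326 on maltose, 0.172 ± 0.0599 on Avicel, 0.169 ± 0.0371 on wheat straw and 0.316 ± 0.074 on xylan-galactomannan (SD, n = 3, and n = 2 for Avicel). It was 0.899 ± 0.458 for the aspen libraries and 1.001 ± 0.659 for those of pine (SD, n = 3). Relative to maltose the mean ratio was thus 1.08 times as large on wheat straw, 1.1 on Avicel, 2.03 on xylan-galactomannan, 5.77 on aspen and 6.42 on pine. The pine libraries had ratios of 0.629, 1.76 and 0.612, and without pine replicate 2 their mean was 3.98 times that of maltose. That is below the 5.77 of all aspen libraries, but the aspen mean also rested in part on 1 library. Without aspen replicate 3 it was 4.11 times that of maltose. The 6 libraries of the woods ranged from 0.549 to 1.76, and the 11 others ranged from 0.125 to 0.360. The woods therefore stood apart from wheat straw in the balance of the 2 genes, while pine and aspen overlapped. This grouping was chosen after the values were seen and was not tested.

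**Figure D3:**
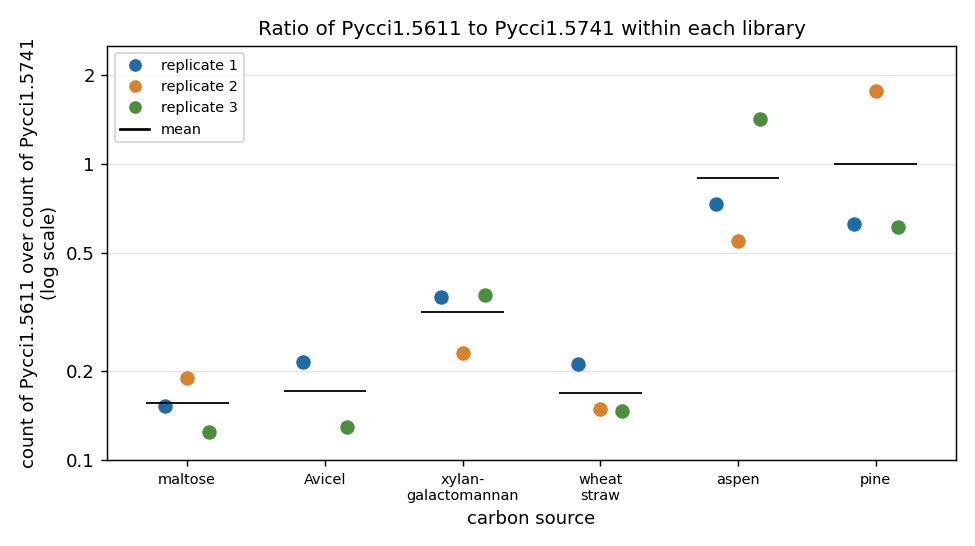
Ratio of the count of Pycci1.5611 to the count of Pycci1.5741 (log scale) in each of the 17 libraries, with points coloured by replicate number and a black line at the group mean. The pine and aspen libraries lie at 0.549 or higher, and all other libraries at 0.360 or lower.

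The spread between replicates was larger than the counting error. On pine replicate 2 had 6177 counts of Pycci1.5611 (95% exact Poisson interval 6024 to 6333), and replicate 3 had 2963 (2857 to 3072). The coefficient of variation of normalized counts on pine was 46.9% for Pycci1.5611 and 16.4% for Pycci1.5741. On aspen it was 26.7% and 36.2%, and on the other 4 carbon sources it stayed between 7.2% and 28.5% over both genes. Within groups the 2 genes deviated from their means in opposite or in the same direction, depending on the library. In pine replicate 2 gene Pycci1.5611 was above the mean of its group by 0.72 log2 and Pycci1.5741 was below it by a deviation of -0.28. In aspen replicate 3 gene Pycci1.5741 had a deviation of -0.61 and Pycci1.5611 of 0.16. In wheat straw both genes were above their means in replicate 1 (0.09 for Pycci1.5741 and 0.44 for Pycci1.5611) and below them in replicate 3 (-0.11 and -0.30). Over the 15 libraries other than Avicel the signs were opposite in 11 and the same in 4. The deviations sum to 0 in each group, so they are not independent, and with 2 Avicel libraries they are mirror images by construction.

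The xylan-galactomannan libraries were the only ones that the study did not use when it chose the genes. The maltose and Avicel libraries they are compared with were used in that choice, as groups in which both genes were low, so a higher value on xylan-galactomannan is partly built in and these differences too are given without a p-value. Against maltose the log2 fold change of Pycci1.5611 on xylan-galactomannan was 1.92 ± 0.28 (SE), and over the alternatives tried it lay between 1.84 and 2.01. That of Pycci1.5741 was 0.91 ± 0.21 (SE), just under the threshold of 1. For both genes the 3 libraries lay above all maltose libraries, as for 25.6% of genes tested. In the fit 6.97% of all genes were called higher and 3.2% lower in this comparison, which means past 1 on the log2 scale with an adjusted p under 0.05.

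Avicel had the same maltose concentration as xylan-galactomannan according to the labels. Against Avicel the log2 fold change of Pycci1.5611 on xylan-galactomannan was 1.07 ± 0.31 (SE), and its 3 libraries lay above both Avicel libraries, as for 26.4% of genes. Without Avicel replicate 3 it was 0.92 ± 0.41 (SE). For Pycci1.5741 it was 0.18 ± 0.24 (SE), the groups overlapped, and it was -0.03 without Avicel replicate 1. Of all genes 6.93% were called higher in this comparison. The difference between the 2 genes in these comparisons was not tested.

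On xylan-galactomannan against pine, the log2 fold change was -1.22 ± 0.21 for Pycci1.5741 and -2.81 ± 0.28 for Pycci1.5611 (SE). Against aspen it was -0.07 ± 0.21 and -1.47 ± 0.27, and against wheat straw it was -0.72 ± 0.21 and 0.14 ± 0.26 (SE). Since the genes were chosen for high levels on plant substrates, these values are a description. Gene Pycci1.5741 had thus about the same mean on xylan-galactomannan as on aspen, and Pycci1.5611 about the same as on wheat straw.

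The study annotated 3 further predicted cytochrome P450 genes of KOG0157 among those it selected on plant substrates, namely Pycci1.1192, Pycci1.2161 and Pycci1.8493. They were chosen on the same libraries, so their counts are not independent evidence. The maltose libraries were part of that choice, so their counts against maltose, also on xylan-galactomannan, are partly built in. On pine against maltose all 3 were called higher (13.7% of all genes were called higher and 9.34% lower), with a median log2 fold change of 2.3 against -0.03 for all genes tested. All 3 were also called higher on aspen and on wheat straw against maltose, where 13.1% and 9.53% of all genes were, and 1 of them, Pycci1.8493, on Avicel, where 6.01% were. Their highest substrates differed. Gene Pycci1.2161 was highest on pine, with 15718, 21962 and 13875 normalized counts, and had 9161, 9650 and 9685 on wheat straw and 6146, 6551 and 7342 on aspen. Like Pycci1.5741 it had the order pine, wheat straw, aspen without overlap, and like Pycci1.5611 it was highest in pine replicate 2. Gene Pycci1.1192 was highest on aspen, with 12363, 14075 and 15187, and had 4434, 3955 and 4229 on pine. Gene Pycci1.8493 differed less among plant substrates, with means of 7643 ± 602 on aspen, 6268 ± 515 on wheat straw and 5197 ± 67 on pine, and it had 3606 ± 606 on Avicel (SD, n = 3, and n = 2 for Avicel). On pine against aspen the log2 fold changes were 1.34 for Pycci1.2161, -0.58 for Pycci1.8493 and -1.74 for Pycci1.1192. On xylan-galactomannan against maltose they lay between 0.94 and 1.03, at the threshold. There 2 of the 3 genes were called higher (6.97% of all genes were called higher and 3.2% lower), and this count was 0 with upper-quartile scaling or without xylan-galactomannan replicate 1, 1 with the replicate block and without maltose replicates 1 or 3, and 3 at most.

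**Figure D4:**
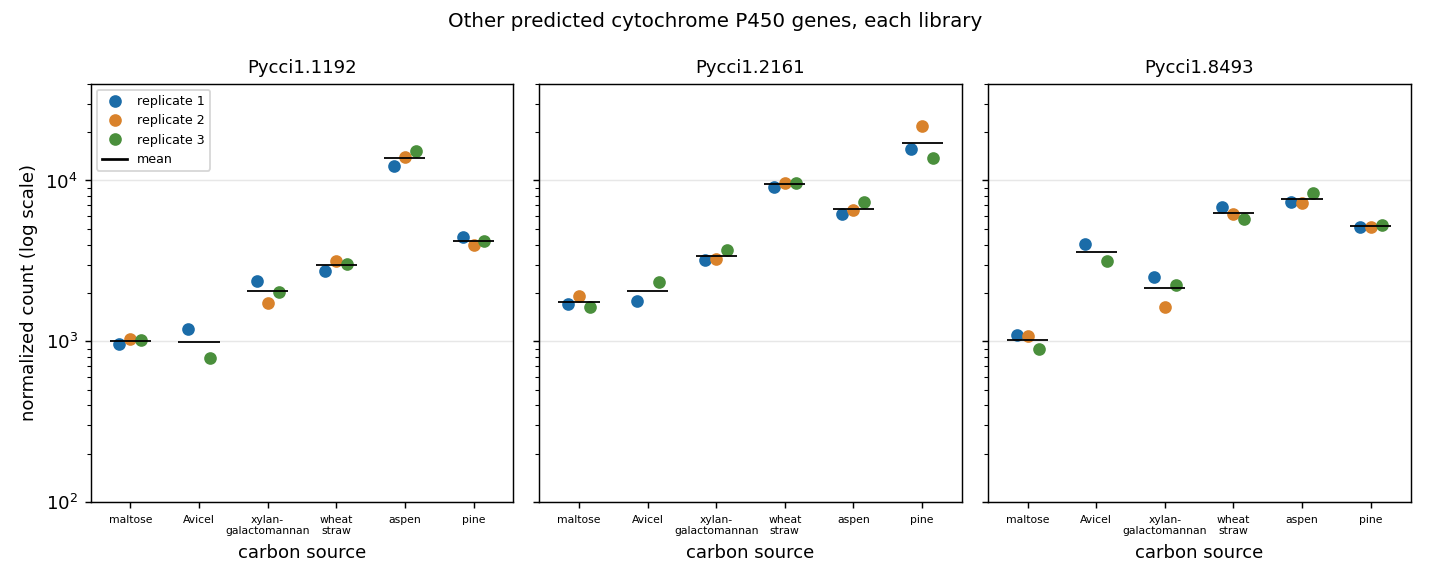
Normalized count (log scale) of the predicted cytochrome P450 genes Pycci1.1192, Pycci1.2161 and Pycci1.8493 in each of the 17 libraries, with points coloured by replicate number and a black line at the group mean. Gene Pycci1.2161 is highest on pine (13875 to 21962), and Pycci1.1192 is highest on aspen (12363 to 15187).

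Fungal cells pass foreign compounds through other oxidoreductases and hydrolases and export them with ATP-driven pumps of the ABC superfamily. A list of 8 genes with such predicted functions was taken from the study's annotation of genes that it had selected on these libraries as higher on a plant substrate than on maltose. The counts on plant substrates were therefore largely fixed by that choice, they are not independent evidence, and nothing is read from them against the shares of all genes. On pine against maltose 6 of the 8 were called higher and 0 lower (13.7% and 9.34% of all genes), with a median log2 fold change of 2.39. On aspen 6 were called higher and 1, Pycci1.5280, lower with -1.45 (13.1% and 10% of all genes). On wheat straw 6 were called higher and 0 lower (9.53% and 6.13%), and on Avicel 3 were called higher and 1, Pycci1.3335, lower with -1.71 (6.01% and 5.83%). The largest change on pine was that of Pycci1.4348, a pump of the pleiotropic drug resistance type, with 4.40 ± 0.37 (SE), followed by Pycci1.3335, of the aldo/keto reductase family, with 3.71 ± 0.21 (SE). The flavoprotein monooxygenase Pycci1.7533 had 3.07, the epoxide hydrolase family gene Pycci1.5280 had 2.63, the multidrug exporter Pycci1.4353 had 2.15 and the zinc-binding oxidoreductase Pycci1.6844 had 1.12. The study annotated Pycci1.7533 as kynurenine 3-monooxygenase and related flavoprotein monooxygenases, which does not itself name a role with foreign compounds. The members of the list that were not called on pine were the quinone oxidoreductase Pycci1.6014 with 0.60 and the aldo/keto reductase Pycci1.8358 with -0.07. On pine against aspen 3 were called higher (Pycci1.4348, Pycci1.5280 and Pycci1.3335) and 2 lower (Pycci1.8358 with -1.61 and Pycci1.6014 with -1.47), where 7.8% and 4.33% of all genes were. On xylan-galactomannan against maltose 4 of the 8 were called higher and 0 lower, where 6.97% and 3.2% of all genes were. The maltose libraries were part of the choice of these genes, so this count is partly built in too. Nothing is read from it against the shares of all genes. The count of 4 was 2 with Bonferroni adjustment and 7 without the threshold on fold change.

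Genes with a pattern like that of each member were sought by Pearson's r of log2(normalized count + 1) over the 17 libraries, among the 9152 other genes. The libraries of a group share their carbon source, so these are not independent points. The members had r = 0.725 with each other over 17 libraries (Spearman 0.718, and 0.805 over the 6 group means). Among the 9152 genes Pycci1.5611 ranked 507 in the list of Pycci1.5741, and Pycci1.5741 ranked 714 in that of Pycci1.5611. Each was thus more like the other than most genes were, but was not among the closest. The study chose both members, the other annotated P450 genes and the list of 8 on the libraries other than xylan-galactomannan. Likeness among these genes is therefore partly built in. Of the annotated P450 genes, Pycci1.2161 had the highest r with both members, with r = 0.858 and rank 60 for Pycci1.5741 and r = 0.861 and rank 105 for Pycci1.5611. By Spearman's rho Pycci1.1192 was closer to Pycci1.5611 (0.838, rank 165) than Pycci1.2161 was (0.801, rank 290). In the list of 8 genes, the closest to Pycci1.5741 was the pump Pycci1.4348 (r = 0.843, rank 84) and the closest to Pycci1.5611 was the flavoprotein monooxygenase Pycci1.7533 (r = 0.883, rank 68).

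The 5 genes most like Pycci1.5741 were Pycci1.9400, Pycci1.7198, Pycci1.3271, Pycci1.4340 and Pycci1.8895 (r from 0.920 to 0.937), and the 5 most like Pycci1.5611 were Pycci1.7293, Pycci1.4246, Pycci1.3045, Pycci1.1219 and Pycci1.10397 (r from 0.934 to 0.959). The sources used here give no predicted function for any of these 10 genes, and the lists have none in common. At rank 1 for Pycci1.5741, Pycci1.9400 had means of 3543 ± 100 on pine and 2059 ± 109 on maltose, a narrower range than that of Pycci1.5741. At rank 3, Pycci1.3271 had means of 5729 ± 1696 on pine and 383 ± 79.7 on maltose. Its means were 2308 ± 346 on wheat straw and 1732 ± 563 on aspen (SD, n = 3 each). Gene Pycci1.7293 had 732 ± 27 on pine, 566 ± 44 on aspen, 381 ± 42.9 on wheat straw and 250 ± 25.8 on maltose (SD, n = 3 each), a narrower range than that of Pycci1.5611. Spearman's rho kept 2 of the 5 genes for each member, and r over the 6 group means kept 2 for Pycci1.5741 and 1 for Pycci1.5611.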

How the data were processed

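The count table holds whole-number counts per gene model, which the authors made with TopHat 2 and HTSeq from trimmed Illumina read pairs of 150 bp. No source used here gives the strand setting or the handling of multiply mapped reads. The deposited normalized signal is the same counts, which the authors divided by 1 size factor per library (largest relative spread within a library 9.8e-15). The study's text names DESeq2 and the submitters' processing notes name DESeq 1.5. The normalized table covers 9167 gene models.

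Counts were tested with edgeR 4.0.16 in R 4.3.3 (filterByExpr, TMM factors, quasi-likelihood fit, group as the only term, 17 libraries, 9162 genes tested). Genes were called at a Benjamini-Hochberg adjusted p under 0.05, over all genes tested, and an absolute log2 fold change over 1. DESeq2 1.42.0, the study's tool, served as an alternative. The fit was tested on simulated data. Replicate numbers are given by the labels. Correlations of the deviations of same-numbered samples were over 0.1 in every pair only for xylan-galactomannan and aspen (0.12 to 0.24). Standard errors were derived from the estimate and the F statistic. Poisson intervals cover counting error only.

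No p-value is given for the members, because every comparison uses groups on which the study chose them. The members, lists and comparisons were chosen with earlier results of these data known. Named genes were the members, the 3 other annotated P450 genes, the genes of the list of 8, whether or not called with both members on pine, and the 5 genes most like each member. No protein ID could be matched to the RefSeq gene table, and no sequence or coordinate is given.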

Additional observations from a re-analysis of the deposited data

How the results depend on the processing

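Of 188 recomputed log2 fold changes of the members that left out no library, 186 were kept under the rules used. The 4 values on xylan-galactomannan against maltose and Avicel had to keep their direction and their call. These calls only score the settings and are not evidence, since the study chose the members on maltose and Avicel among other groups. Other values had only to move by less than the replicate spread, and to keep their sign where the main fit called them. Such kept values could cross the threshold, as Pycci1.5741 did on aspen against maltose, or 0 if not called. The settings were RLE and upper-quartile factors, no filter, DESeq2, only the groups compared and the replicate block, and for the 4 values on xylan-galactomannan against maltose and Avicel also Bonferroni adjustment and no threshold on fold change. Those not kept were on xylan-galactomannan. Without the threshold on fold change Pycci1.5741 passed against maltose at the same 0.91, and with Bonferroni adjustment Pycci1.5611 did not pass against Avicel (1.07). When each library was left out in turn, 167 of 170 values were kept under the same rules. The spread came from the same libraries, and leaving out 1 of 3 replicates can hardly move a value past it. Apart from those 4 values, the count therefore says little about stability. Pine against aspen fell to 0.89 for Pycci1.5611 and 0.90 for Pycci1.5741. Signs also turned for Pycci1.5741 on aspen against Avicel (-0.02) and on xylan-galactomannan against aspen (0.20). So did that of Pycci1.5611 on xylan-galactomannan against wheat straw (-0.006). For Pycci1.5611 on xylan-galactomannan against Avicel the range was 0.92 to 1.23, for Pycci1.5741 it was -0.03 to 0.39, and for Pycci1.5741 on wheat straw against Avicel it was 0.71 to 1.12. These rest on 2 Avicel libraries, and without Avicel replicate 1 the sign for Pycci1.5741 on xylan-galactomannan turned to -0.027. With the replicate block Pycci1.5611 had 1.93 and Pycci1.5741 had 0.92 on xylan-galactomannan against maltose, where the correlations of deviations of same-numbered samples were 0.0033 to 0.079. In 9 of the 10 comparisons with 3 pairs at least 1 correlation was under 0.1 (range -0.11 to 0.22). On xylan-galactomannan against aspen all were over 0.1, and the block gave -1.46 for Pycci1.5611 and -0.05 for Pycci1.5741. It changed no call of the members.

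Settings for the counts of listed genes and for the ratio of the members were chosen after seeing the data. On xylan-galactomannan against maltose the 2 further P450 genes called became 0 with upper-quartile factors and 1 with the replicate block, and ranged from 0 to 3 when libraries were left out. The 4 called of the list of 8 became 2 with Bonferroni adjustment and 7 without the fold threshold. On pine against maltose the counts of 3 and 6 stayed within 1.5 times in all 14 settings each. Causes were not tested. The lowest count of a member, 207, limits its precision only slightly.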
